A study of Mus musculus with 5 samples.

Results

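The antiviral interferon-stimulated genes described here are 50 genes that were picked by symbol out of the 54699 genes of a deposited table of expression values in B16F10 cells. They comprise 10 genes for sensors and transcription factors and 40 genes for effectors, and all 50 symbols were found in the table. B16F10 is an established mouse melanoma cell line, and 1 library was sequenced for each of 5 groups. Cells carried a lentivirus for forced expression of Myod1, a lentivirus for forced expression of Pparg, or the empty expression vector, and were collected on day 8. Other cells carried a lentivirus with a short hairpin RNA against Setdb1 (shSetdb1) or the empty knockdown vector (shCtrl), and were collected on day 7. Every group, the controls included, had therefore received a lentivirus, and the genotype of both control groups is given as wild type. Myod1 is a master transcription factor of skeletal muscle, Pparg is a nuclear receptor that drives fat cell differentiation, and Setdb1 is a histone methyltransferase that silences repeated elements. The groups are called the Myod1, Pparg and Setdb1 libraries, the expression control and the knockdown control below.

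Interferon-stimulated genes are switched on when a cell senses foreign or misplaced nucleic acid, or receives interferon made by another cell. RIG-I-like receptors bind viral RNA and, through the adaptor Mavs, activate Irf3 and Irf7, which induce type I interferon. Interferon then acts through the receptor made of Ifnar1 and Ifnar2, the kinases Jak1 and Tyk2, and a complex that holds Stat2 and Irf9 and binds the interferon-stimulated response element (ISRE) of target promoters. Interferon gamma acts on promoters through the gamma-activated site (GAS). Melanoma cells are often studied for how far this pathway can still be engaged, since many of its products also take part in antigen presentation and cell death.

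The ISRE is the element through which type I interferon reaches its target promoters, so the stretches that hold its core are shown for members on which the results turn. RefSeq promoter windows on GRCm38.p6, from 250 bases before to 50 bases after the start site, were matched for 39 of the 50 members. The ISRE core was searched on both strands as GAAANNGAAA, which reads TTTCNNTTTC on the other strand. It was present in 19 of the 39 members (48.7%), in 3.99% of all 27025 genes with a window and in 3.33% of the 8980 such genes compared here. The GAS letters TTCNNNGAA, which read the same on both strands, were present in 10 of 39 members (25.6%) and in 9.55% of all genes with a window. Each stretch below runs 5′ to 3′ on the gene's strand and lies upstream of the start site, with the core or overlapping cores in capitals.
Isg15 (chr4:156200860-156200911, minus strand): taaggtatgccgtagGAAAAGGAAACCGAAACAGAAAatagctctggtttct
Ifit1 (chr19:34640770-34640828, plus strand): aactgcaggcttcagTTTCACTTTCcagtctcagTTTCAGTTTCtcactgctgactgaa
Ifit3 (chr19:34583358-34583431, plus strand): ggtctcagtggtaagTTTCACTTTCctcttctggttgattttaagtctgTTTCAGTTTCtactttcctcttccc
Oas1a (chr5:120907526-120907560, minus strand): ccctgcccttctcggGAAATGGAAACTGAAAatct
Gbp2 (chr3:142620589-142620628, plus strand): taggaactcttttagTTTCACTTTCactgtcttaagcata
Gbp3 (chr3:142559984-142560029, plus strand): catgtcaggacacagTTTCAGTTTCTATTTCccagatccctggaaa
Irgm1 (chr11:48871421-48871465, minus strand): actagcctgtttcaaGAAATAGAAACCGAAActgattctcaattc
Igtp (chr11:58199507-58199546, plus strand): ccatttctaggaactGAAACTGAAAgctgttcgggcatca
Stat2 (chr10:128270261-128270300, plus strand): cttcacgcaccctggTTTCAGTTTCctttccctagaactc
Bst2 (chr8:71537572-71537617, minus strand): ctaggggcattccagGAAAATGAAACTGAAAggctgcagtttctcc
Isg15 held 3 overlapping cores, and Ifit1 and Ifit3 each held 2 separate ones. The Ifit3b window held the same 74 letters as that of Ifit3, at chr19:34607754-34607827. Ddx58, Ifih1, Eif2ak2, Gbp7, Oas1g, Oas3, Rsad2, Tgtp1 and Ifit3b were the other members with a core. A match describes letters in a window and no binding was measured.

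Expression was given as FPKM, that is fragments scaled to gene length and sequencing depth, and the whole reads behind the values could be recovered in every library. The libraries held between 16214802 and 18300670 reads over genes. Myod1 was at 260 FPKM in its own library with 0 reads in the other 4, Pparg was at 44.4 with 0 reads elsewhere, and Setdb1 was at 0.867 in the Setdb1 library against 8.41 to 15.2 in the others. The 7 melanocyte markers, which define the labelled cell type, were detected in every library, at a summed FPKM of 3110 and 2195 in the Myod1 and Pparg libraries and of 7583 to 8985 in the other 3. Whether this has a part in the results was not tested. With 1 library per group no test between groups was possible, and differences between cultures cannot be told apart from those of the treatment. The intervals given are 95% intervals for the counting of reads alone. In bulk RNA, a change in the number of cells that express a gene and a change in the RNA per cell cannot be told apart.

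**Figure D1:**
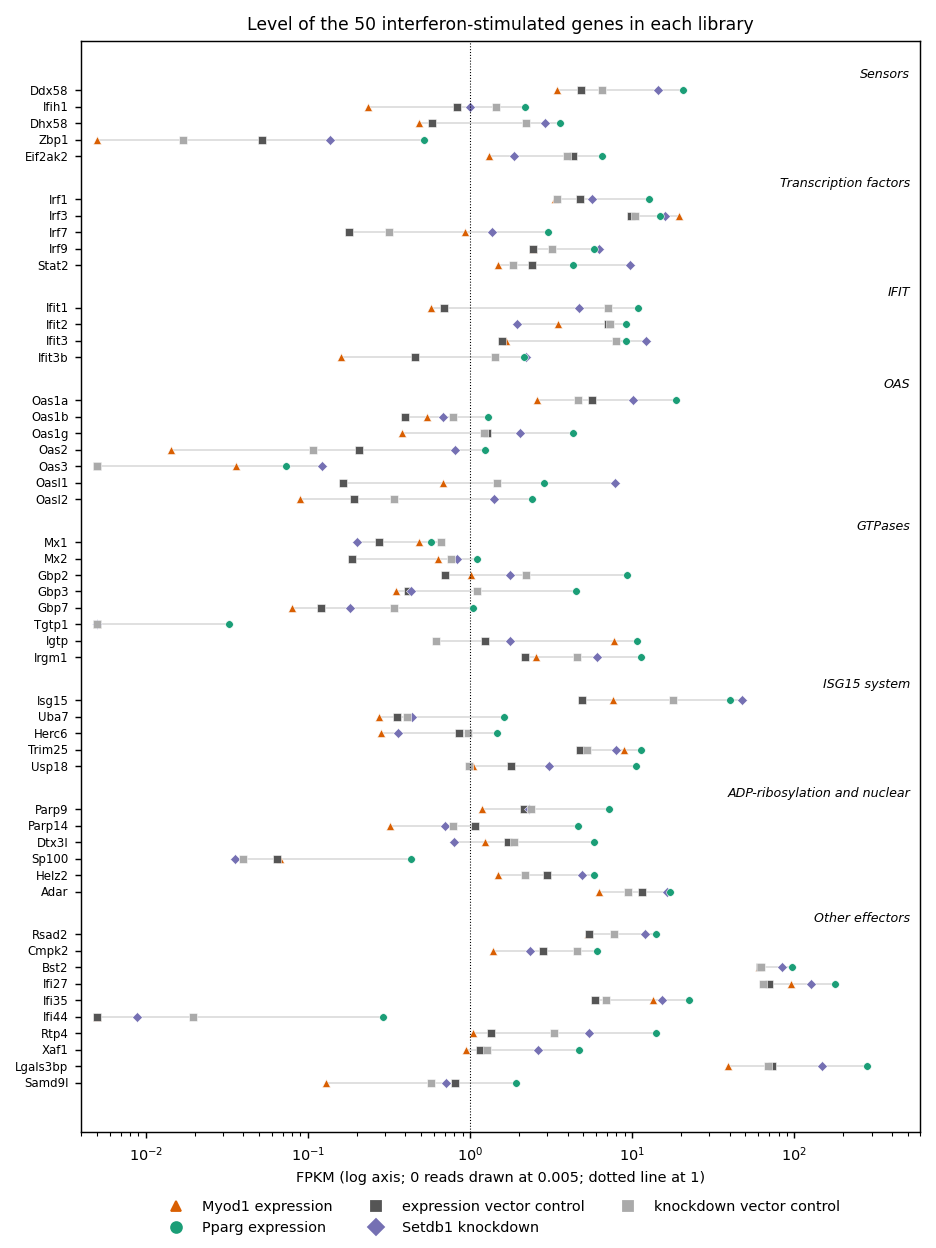
Level of each of the 50 members in the 5 libraries, in FPKM on a log axis, with members grouped by role and 0 reads drawn at 0.005. The Pparg library (circles) is the rightmost point for 41 of the 50 members, and the Myod1 library (triangles) is the leftmost for 31, ties included.

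The antiviral genes were expressed at low to moderate levels in all 5 libraries, and highest as a group with Pparg expression. Together the 50 members took 620 of every 1000000 reads in the Myod1 library, 826 in the expression control, 939 in the knockdown control, 1671 in the Setdb1 library and 2730 in the Pparg library. Their median FPKM was 1.03, 1.26, 1.85, 2.27 and 5.84 in the same order. Lgals3bp, Ifi27 and Bst2 took between 38.1% and 46.2% of these reads. The other 47 members gave 357, 469, 582, 941 and 1468 of every 1000000 reads, in the same order of libraries. FPKM reached 1 for 44 members in the Pparg library, 34 in the Setdb1 library, 32 in the knockdown control, 28 in the expression control and 26 in the Myod1 library.

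Members were compared where FPKM reached 1 in at least 1 library, which kept 44 of the 50 and 12842 genes in all. Of these 44, 7 reached 1 only in the Pparg library, so they had to be higher there. A further 35 members reached 1 in at least 1 control. Of all 50, 11 shared over 10% of the 50-base stretches of their longest transcript with a transcript of another gene, and the assignment of such reads is not given in the sources used here. The members left out of the comparisons were Ifi44, Oas3, Mx1, Zbp1, Sp100 and Tgtp1. Differences are given as log2 ratios of FPKM + 1, which understate the change of low genes, and a gene was counted as different at 2-fold or more on that scale. Ratios of FPKM are given beside them without the added 1.

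With Pparg expression, FPKM was above that of the expression control for all 50 members, beside 45.8% of all genes compared, and 27 of the 44 compared (61.4%) were at least 2-fold higher and 0 lower. Of all genes compared, 4.22% were at least 2-fold higher and 2.30% lower. The log2 ratio ran from 0.33 for Ifit2 to 2.82 for Ifit1, with a median of 1.29 against -0.02 for all genes. Among the 35 members that a control alone brought into the comparison, 25 were at least 2-fold higher, with a median of 1.38, where 3.09% of all genes that passed the same filter were higher, with a median of -0.07. Against both controls 20 members were at least 2-fold higher and 0 lower, where the background was 3.34% and 0.849%. The 7 that were 2-fold higher than the expression control but not the knockdown control were Ifit1, Ifit3, Ifit3b, Oasl1, Dhx58, Rsad2 and Trim25.

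With Setdb1 knockdown, 33 members had a higher FPKM than in the knockdown control, 16 a lower one and 1 the same. Of the 44 compared 31 had a positive log2 ratio, beside 50.3% of all genes. At least 2-fold higher were Stat2, Oasl1, Isg15, Lgals3bp, Ifi35, Usp18 and Ddx58, 7 of 44 (15.9%), and Ifit2 was the 1 member at least 2-fold lower (2.27%). The background was 9.34% higher and 10.3% lower. The median log2 ratio was 0.54, against 0.00 for all genes. Against both controls 6 members were higher, the same genes without Usp18, and Ifit2 was lower, with a background of 5.80% and 7.56%. That count of 7 was 4 (9.09%) with either other scaling or with GC and length trends removed, where 8.28%, 7.93% and 6.61% of all genes were higher, so the share lay near that of all genes there. It was 13 (29.5%) with a pseudocount of 0.1 and 14 (31.8%) with no pseudocount and a floor of 3 reads, beside 15.04% and 15.01% of all genes, and 16 (36.4%) against the expression control, beside 8.72%.

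With Myod1 expression, 32 members had a lower FPKM than in the expression control, 16 a higher one and 2 the same. Of the 44 compared 31 had a negative log2 ratio, beside 47.9% of all genes. Igtp and Ifi35 (4.55% of those compared) were at least 2-fold higher and Eif2ak2 (2.27%) at least 2-fold lower, beside 14.0% and 7.55% of all genes. The order of the lower share turned with the setting. It was 8 of 44 (18.2%) beside 7.51% of all genes against the knockdown control, 10 of 44 (22.7%) beside 13.2% with a pseudocount of 0.1, and 13 of 44 (29.5%) beside 13.2% with the floor of 3 reads. The median log2 ratio of the 44 was -0.13, against 0.02 for all genes. Against both controls Igtp was higher and Eif2ak2 lower, with a background of 11.9% and 4.42%. Dividing each library by its summed FPKM moved the median of all genes to -0.26 and that of the members to -0.34, and then 1 member was higher and 5 lower, with 1238 genes higher and 1907 lower in all against 1798 and 970 as deposited. Scaling to the 75th percentile gave -0.11 for all genes, with 1489 higher and 1334 lower, and 1 member higher and 4 lower.

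The 2 empty vector controls, which differ in vector and day, were not equal for these genes. Ifit1, Ifit3, Isg15, Oasl1 and Dhx58 were at least 2-fold higher in the knockdown control, 5 of 44 (11.4%), and 0 were lower, where 1.23% and 1.44% of all genes were. The count of 5 was 12 with a pseudocount of 0.1 and 12 with the read floor, beside 3.26% and 2.68% of all genes. The median log2 ratio was 0.11, with Usp18 the lowest at -0.50. For 20 of the 44 the controls differed by more than 1.5 times, from a ratio of 0.5004 for Igtp to 10.2 for Ifit1, and any ratio of these members moves by that factor with the other control. The 20 were Ifih1, Dhx58, Irf7, Ifit1, Ifit3, Ifit3b, Oas1b, Oas2, Oasl1, Oasl2, Mx2, Gbp2, Gbp3, Gbp7, Igtp, Irgm1, Isg15, Usp18, Cmpk2 and Rtp4. With the other control the log2 ratio changed sign for 0 members with Pparg expression, for 8 with Setdb1 knockdown (Ifih1, Ifit1, Oas1b, Gbp2, Gbp3, Gbp7, Parp9 and Samd9l) and for 8 with Myod1 expression (Ifit3, Oas1b, Oasl1, Mx2, Gbp2, Irgm1, Isg15 and Usp18).

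Ordered over the 5 libraries, 37 of the 44 compared members were highest in the Pparg library, where 12.0% of all genes compared were highest. The 7 members that only the Pparg library brought into the comparison had to be highest there. Of the 35 that reached 1 FPKM in a control, 28 were, beside 11.05% of all genes that passed that filter. Ifit3, Ifit3b, Irf9, Isg15, Oasl1 and Stat2 were highest in the Setdb1 library, 6 members beside 25.9% of all genes. Irf3 was highest in the Myod1 library, where 28.7% of genes were, and 0 members were highest in the expression control or the knockdown control, where 15.7% and 17.7% of genes were.

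**Figure D2:**
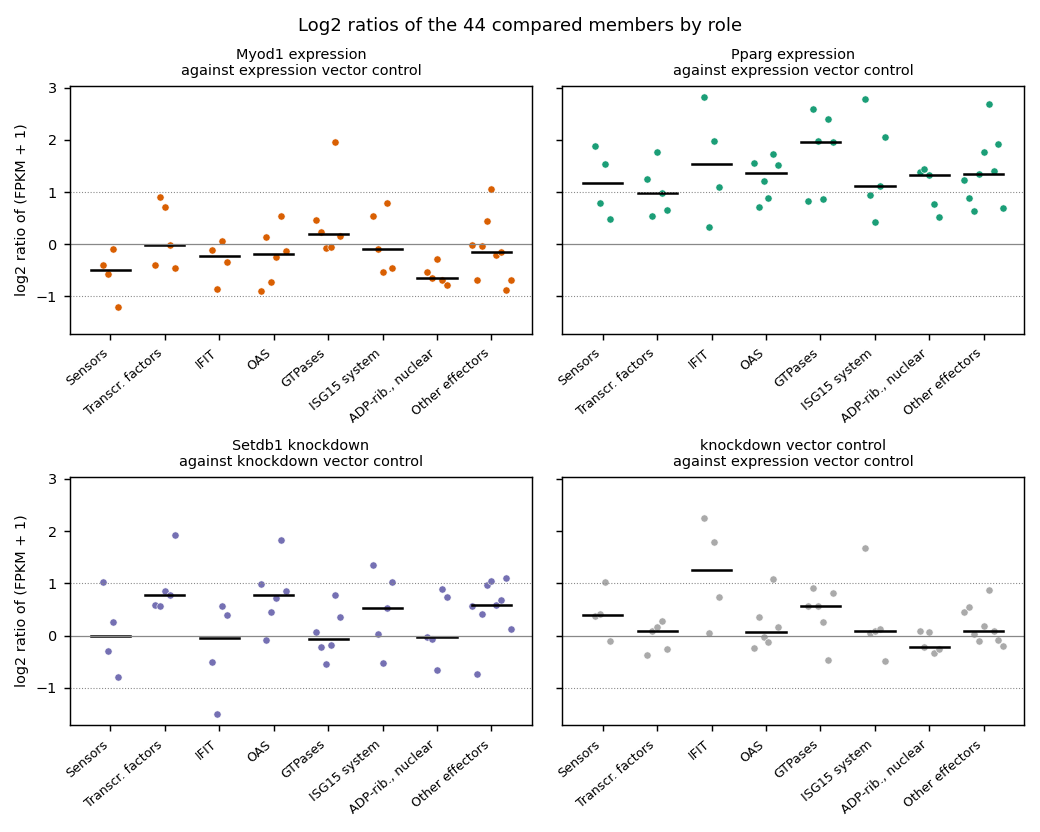
Log2 ratio of FPKM + 1 for the 44 compared members in 4 comparisons, by role, with 1 point per gene, a bar at the median of each role and dotted lines at 2-fold. All points lie above 0 with Pparg expression, from 0.33 to 2.82, and Ifit2 lies at -1.50 with Setdb1 knockdown.

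Among the sensors, Ddx58 was higher in both the Pparg and the Setdb1 library, while Eif2ak2 was at least 2-fold lower in the Myod1 library and had a log2 ratio of -0.79, under 2-fold, in the Setdb1 library. Ddx58 encodes RIG-I, which detects RNA with a free triphosphate end. Its FPKM was 3.44 in the Myod1 library, 20.6 in the Pparg library, 4.85 in the expression control, 14.4 in the Setdb1 library and 6.56 in the knockdown control. The ratio to the matching control was 4.25 (3.88 to 4.66) with Pparg expression and 2.19 (2.01 to 2.39) with Setdb1 knockdown, and the Pparg and Setdb1 values lay above those of the other 3 libraries. Ifih1 encodes MDA5, the sensor of long RNA duplexes, and was at 0.234 in the Myod1 library, 2.18 in the Pparg library, 0.832 in the expression control, 1.01 in the Setdb1 library and 1.45 in the knockdown control. With Setdb1 knockdown its ratio was 0.694 (0.558 to 0.861), or 1.21 to the expression control, so the side of 1 depended on the control. Dhx58, the gene of the regulatory helicase LGP2, was at 0.486 in the Myod1 library, 3.57 in the Pparg library, 0.580 in the expression control, 2.89 in the Setdb1 library and 2.23 in the knockdown control. The knockdown control was 3.84 (2.57 to 5.90) times the expression control for Dhx58, so the ratio with Pparg expression was 6.16 (4.22 to 9.28) to the expression control and 1.60 to the knockdown control.

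Eif2ak2 encodes PKR, a kinase that shuts down translation on binding RNA duplexes, and was at 1.32 in the Myod1 library, 6.49 in the Pparg library, 4.35 in the expression control, 1.88 in the Setdb1 library and 3.99 in the knockdown control. The Myod1 and Setdb1 libraries were the low ones. Its ratio was 0.303 (0.242 to 0.378) with Myod1 expression, 0.472 (0.391 to 0.567) with Setdb1 knockdown and 1.49 (1.31 to 1.70) with Pparg expression. Zbp1, a sensor of left-handed nucleic acid, stayed under the limit, with 35 reads in the Pparg library, 9 in the Setdb1 library and 3, 1 and 0 in the expression control, the knockdown control and the Myod1 library. All 4 compared sensors had a negative log2 ratio with Myod1 expression, at a median of -0.49, beside 47.9% of all genes, and 1 of them, Eif2ak2, passed 2-fold. Against the knockdown control the median was -1.05 and 2 passed 2-fold.

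Of the 5 transcription factors, Stat2 was at least 2-fold higher with Setdb1 knockdown, and Irf1 and Irf7 were with Pparg expression. The log2 ratio was positive for all 5 in both comparisons, where it was positive for 50.3% of all genes with Setdb1 knockdown and 45.8% with Pparg expression. Stat2 encodes the subunit that carries the activation domain of the complex with Irf9. Its FPKM was 1.49 in the Myod1 library, 4.35 in the Pparg library, 2.41 in the expression control, 9.75 in the Setdb1 library and 1.84 in the knockdown control, and the ratio was 5.31 (4.53 to 6.25) with Setdb1 knockdown and 1.81 (1.54 to 2.12) with Pparg expression. The Setdb1 library stood above the Pparg library for this gene. Irf9, the DNA-binding subunit of the same complex, was at 2.43 in the Myod1 library, 5.86 in the Pparg library, 2.45 in the expression control, 6.22 in the Setdb1 library and 3.21 in the knockdown control, with ratios of 1.94 (1.68 to 2.24) and 2.39 (2.04 to 2.80). Its Pparg and Setdb1 values had overlapping counting intervals.

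Irf7, the factor that amplifies type I interferon production, was low in both controls, at 0.926 in the Myod1 library, 3.03 in the Pparg library, 0.178 in the expression control, 1.37 in the Setdb1 library and 0.317 in the knockdown control. The expression control value rested on 11 reads, and the ratio with Pparg expression was 17.0 (9.30 to 34.5), or 9.55 to the knockdown control. With Setdb1 knockdown the ratio was 4.34 (2.66 to 7.42) and with Myod1 expression 5.19 (2.69 to 11.01), so all 3 treated libraries lay above both controls. Irf1, which is induced by interferon gamma through GAS and acts on antigen-presentation genes, was at 3.36 in the Myod1 library, 12.7 in the Pparg library, 4.77 in the expression control, 5.65 in the Setdb1 library and 3.46 in the knockdown control. The Pparg library stood apart, at a ratio of 2.66 (2.34 to 3.03). Irf3, which is activated by phosphorylation and not mainly through its level, was at 19.4 in the Myod1 library, 14.8 in the Pparg library, 9.83 in the expression control, 15.98 in the Setdb1 library and 10.5 in the knockdown control. All 3 treated libraries lay above both controls, with ratios of 1.97 (1.78 to 2.19), 1.51 (1.36 to 1.68) and 1.53 (1.38 to 1.69) in the order Myod1, Pparg and Setdb1.

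**Figure D3:**
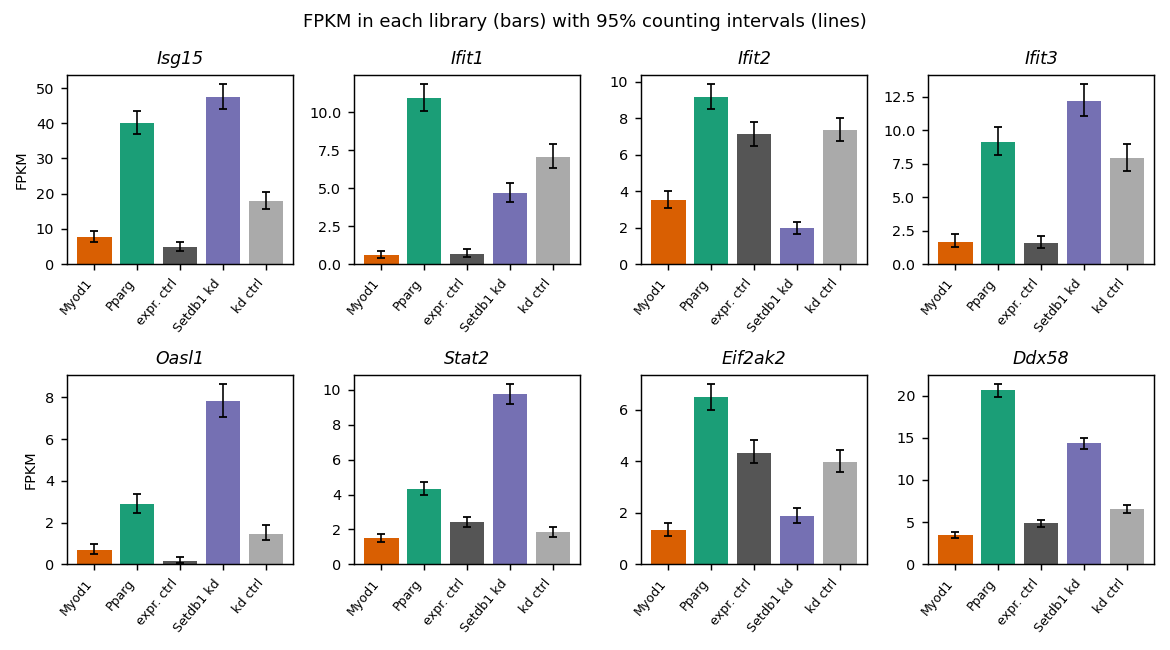
FPKM of 8 members in each library as bars from 0, with 95% Wilson counting intervals as lines. Ifit2 and Eif2ak2 are low in the Myod1 and Setdb1 libraries, Stat2 and Oasl1 are highest in the Setdb1 library, and Ifit1 differs between the 2 controls.

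The IFIT genes encode proteins that bind foreign RNA ends and block its translation, and the 4 members differed in their pattern over the libraries. Ifit1 was at 0.575 in the Myod1 library, 10.9 in the Pparg library, 0.691 in the expression control, 4.68 in the Setdb1 library and 7.07 in the knockdown control. The ratio with Pparg expression was 15.8 (10.96 to 23.7) to the expression control but 1.55 to the knockdown control, since the controls themselves differed at a ratio of 10.2 (7.02 to 15.4). With Setdb1 knockdown the ratio was 0.662 (0.556 to 0.787) to the knockdown control but 6.77 to the expression control. Ifit3, whose product binds other IFIT proteins, was at 1.68 in the Myod1 library, 9.15 in the Pparg library, 1.58 in the expression control, 12.2 in the Setdb1 library and 7.92 in the knockdown control, low in the Myod1 library and the expression control and higher in the other 3. Its ratio was 5.80 (4.23 to 8.11) with Pparg expression, or 1.16 to the knockdown control, and 1.55 (1.31 to 1.83) with Setdb1 knockdown. Ifit2 was at 3.50 in the Myod1 library, 9.19 in the Pparg library, 7.12 in the expression control, 1.95 in the Setdb1 library and 7.36 in the knockdown control. The 2 controls overlapped for Ifit2, at a ratio of 1.03 (0.907 to 1.18), and the ratio was 0.266 (0.219 to 0.321) with Setdb1 knockdown, 0.491 (0.416 to 0.579) with Myod1 expression and 1.29 (1.15 to 1.46) with Pparg expression.

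In the genome Ifit2, Ifit3, Ifit3b and Ifit1 lie next to each other within 99.3 kb, at chr19:34550694-34650009. Within that stretch, Setdb1 knockdown gave log2 ratios of -1.50 for Ifit2, 0.57 for Ifit3, 0.40 for Ifit3b and -0.51 for Ifit1. Against the expression control these were -1.46, 2.36, 1.14 and 1.75, so the sign turned for Ifit1 and only Ifit2 stayed negative. Ifit3b was at 0.159 in the Myod1 library, 2.14 in the Pparg library, 0.459 in the expression control, 2.22 in the Setdb1 library and 1.44 in the knockdown control. Of the 50-base stretches of its longest transcript 45.0% were also found in another gene, mostly Ifit3, so reads of the pair may have been shared or dropped and the levels of each are uncertain.

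The OAS genes encode sensors and synthetases of oligoadenylates, which activate the ribonuclease RNase L, and the OASL genes encode relatives of these enzymes. Of the 7 members 6 were compared. All 6 had a positive log2 ratio with Pparg expression, beside 45.8% of all genes, and 5 had one with Setdb1 knockdown, beside 50.3%. Oas1b was the exception, at -0.09, or 0.26 against the expression control. Oas1b and Oas2 reached 1 FPKM only in the Pparg library, so their sign with Pparg expression was fixed by the filter. Oasl1, a repressor of Irf7 translation, was at 0.683 in the Myod1 library, 2.88 in the Pparg library, 0.164 in the expression control, 7.81 in the Setdb1 library and 1.47 in the knockdown control, with the Setdb1 library highest. Its ratio was 5.32 (4.07 to 7.05) with Setdb1 knockdown, 17.5 (8.29 to 44.4) with Pparg expression, or 1.96 to the knockdown control, and 8.93 (4.09 to 23.1) between the controls. Oasl2 was at 0.0898 in the Myod1 library, 2.42 in the Pparg library, 0.192 in the expression control, 1.42 in the Setdb1 library and 0.338 in the knockdown control, with ratios of 12.6 (8.02 to 21.0) for Pparg expression, or 7.17 to the knockdown control, and 4.19 (2.91 to 6.19) for Setdb1 knockdown.

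Oas1a encodes a synthetase of the family and was at 2.60 in the Myod1 library, 18.5 in the Pparg library, 5.68 in the expression control, 10.1 in the Setdb1 library and 4.63 in the knockdown control. The Pparg library was highest, at a ratio of 3.26 (2.76 to 3.88), the Setdb1 library followed at 2.19 (1.80 to 2.68), and the Myod1 library was lowest at 0.457 (0.345 to 0.601). Oas1g was at 0.380 in the Myod1 library, 4.30 in the Pparg library, 1.28 in the expression control, 2.03 in the Setdb1 library and 1.23 in the knockdown control, in the same order of libraries. Oas1a and Oas1g share 57.6% of the 50-base stretches of Oas1a, so their levels are uncertain. Oas1b was at 0.543 in the Myod1 library, 1.28 in the Pparg library, 0.399 in the expression control, 0.678 in the Setdb1 library and 0.781 in the knockdown control and was the OAS member with the lowest log2 ratio in the Pparg comparison, 0.71, or 0.36 to the knockdown control. The deposited table gives Oas1b the biotype polymorphic pseudogene. Oas2 was at 0.0143 in the Myod1 library, 1.23 in the Pparg library, 0.206 in the expression control, 0.813 in the Setdb1 library and 0.107 in the knockdown control, and with Setdb1 knockdown its ratio was 7.57 (3.63 to 18.2). Oas3 had 16 reads in the Setdb1 library, 10 in the Pparg library, 4 in the Myod1 library and 0 in both controls. With a floor of 3 reads it was 4.82 times the knockdown control with Setdb1 knockdown. With Pparg expression it was 2.84 times the expression control by the same floor. The counting intervals of these ratios began at 3.48 and 1.91. The 5 OAS genes other than the OASL pair lie at chr5:120730333-120907521.

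The GTPases had the highest median log2 ratio of any role with Pparg expression against the expression control, 1.96, but not against the knockdown control, where it was 1.27 beside 1.33 for the other effectors. They were mixed with Setdb1 knockdown, with 3 of 6 compared members positive and a median of -0.06, but all 6 were positive against the expression control, with a median of 0.47. Gbp2 and Gbp3 encode guanylate-binding proteins, which coat pathogen membranes, and lie with Gbp7 at chr3:142530342-142638008. Gbp2 was at 1.01 in the Myod1 library, 9.27 in the Pparg library, 0.706 in the expression control, 1.76 in the Setdb1 library and 2.21 in the knockdown control. The Pparg library stood apart, at a ratio of 13.1 (9.02 to 19.8) to the expression control and 4.19 to the knockdown control. Gbp3 was at 0.351 in the Myod1 library, 4.54 in the Pparg library, 0.412 in the expression control, 0.430 in the Setdb1 library and 1.10 in the knockdown control, with ratios of 11 (7.13 to 17.8) for Pparg expression, or 4.13 to the knockdown control, and 0.392 (0.237 to 0.630) for Setdb1 knockdown. For Gbp2, Gbp3 and Gbp7 the Setdb1 value was thus below that of the knockdown control, and for Gbp2 the counting interval of the ratio, 0.585 to 1.08, held 1.

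Igtp and Irgm1 encode immunity-related GTPases, which are induced mostly by interferon gamma. Igtp was at 7.74 in the Myod1 library, 10.8 in the Pparg library, 1.24 in the expression control, 1.76 in the Setdb1 library and 0.621 in the knockdown control, and it was the member with the highest log2 ratio in the Myod1 comparison. The Myod1 and Pparg libraries were the high ones, with ratios of 6.23 (4.46 to 8.90) and 8.67 (6.28 to 12.3), or 12.5 and 17.3 to the knockdown control. Igtp overlaps Irgm2 on the same strand over 7974 bases, and Irgm2 had 265 reads in the Myod1 library, 948 in the Pparg library and 92, 128 and 79 in the expression control, the Setdb1 library and the knockdown control. Reads of these genes may therefore have been assigned to either. Irgm1 was at 2.55 in the Myod1 library, 11.3 in the Pparg library, 2.17 in the expression control, 6.11 in the Setdb1 library and 4.58 in the knockdown control. Its ratio was 5.21 (4.50 to 6.07) for Pparg expression, or 2.47 to the knockdown control. For Myod1 expression it was 1.18 (0.970 to 1.42), or 0.557 to the knockdown control.

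Mx1 and Mx2 belong to a family of dynamin-like GTPases that act against viruses, and the deposited table gives Mx2 the biotype polymorphic pseudogene. Mx2 was at 0.634 in the Myod1 library, 1.11 in the Pparg library, 0.186 in the expression control, 0.837 in the Setdb1 library and 0.761 in the knockdown control. Its ratio was 5.97 (3.16 to 12.4) with Pparg expression, or 1.46 to the knockdown control. With Myod1 expression it was 3.40 (1.69 to 7.41), or 0.832 to the knockdown control, and between the controls 4.09 (2.08 to 8.75). Mx1 was under 1 FPKM in all 5 libraries, from 0.200 in the Setdb1 library to 0.664 in the knockdown control. Tgtp1 had 2 reads in the Pparg library and 0 elsewhere, and 91.4% of its 50-base stretches occur in another gene, mostly Tgtp2.

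Of the ISG15 system, which attaches the small modifier Isg15 to proteins, Isg15 and its protease Usp18 were at least 2-fold higher in both the Pparg and the Setdb1 library, while the ligase Herc6 was under 2-fold in both. Isg15 was at 7.66 in the Myod1 library, 40.1 in the Pparg library, 4.94 in the expression control, 47.5 in the Setdb1 library and 18.0 in the knockdown control. The Setdb1 and Pparg libraries were above all 3 others, with ratios of 2.65 (2.27 to 3.09) and 8.12 (6.23 to 10.7) to their own controls. The controls differed at a ratio of 3.64 (2.73 to 4.91), so the Pparg library was 2.23 times the knockdown control, and the Myod1 library was 1.55 (1.11 to 2.18) times the expression control but 0.426 times the knockdown control. Usp18, which also blocks signalling at Ifnar2, was at 1.05 in the Myod1 library, 10.6 in the Pparg library, 1.80 in the expression control, 3.06 in the Setdb1 library and 0.986 in the knockdown control, with ratios of 5.90 (4.68 to 7.54) for Pparg expression and 3.104 (2.22 to 4.41) for Setdb1 knockdown, or 10.8 and 1.70 to the other control.

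On the conjugating side Trim25 was past 2-fold with Pparg expression, at a log2 ratio of 1.11, against 0.95 for Uba7 and 0.42 for Herc6. Without the added 1 the order of Trim25 and Uba7 turned, at ratios of 2.40 (2.15 to 2.68) and 4.55. Uba7, the activating enzyme, was at 0.276 in the Myod1 library, 1.62 in the Pparg library, 0.357 in the expression control, 0.436 in the Setdb1 library and 0.411 in the knockdown control, with a ratio of 4.55 (3.22 to 6.57) for Pparg expression. Herc6, the main ligase for Isg15 in mouse cells, was at 0.281 in the Myod1 library, 1.47 in the Pparg library, 0.850 in the expression control, 0.361 in the Setdb1 library and 0.965 in the knockdown control. Its ratio was 0.373 (0.273 to 0.505) with Setdb1 knockdown, a log2 ratio of -0.53 that became 0.11 once trends with GC and length were removed, and 0.330 (0.226 to 0.473) with Myod1 expression. Trim25, a ubiquitin ligase that activates RIG-I, was at 8.91 in the Myod1 library, 11.4 in the Pparg library, 4.74 in the expression control, 8.00 in the Setdb1 library and 5.28 in the knockdown control, with all 3 treated libraries above both controls.

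Of the 6 members with ADP-ribosylation or nuclear roles 5 were compared, and all 5 had a positive log2 ratio with Pparg expression, beside 45.8% of all genes. All 5 had a negative one with Myod1 expression, beside 47.9% of all genes, at a median of -0.65, or -0.44 against the knockdown control, with 0 past 2-fold against either. Parp9, Dtx3l and Parp14 form a linked set for ADP-ribosylation and ubiquitylation and lie at chr16:35832874-35972605. Parp9 was at 1.19 in the Myod1 library, 7.21 in the Pparg library, 2.16 in the expression control, 2.32 in the Setdb1 library and 2.37 in the knockdown control, with the Pparg library apart at a ratio of 3.33 (2.82 to 3.97). Dtx3l was at 1.24 in the Myod1 library, 5.83 in the Pparg library, 1.72 in the expression control, 0.802 in the Setdb1 library and 1.86 in the knockdown control, with ratios of 3.39 (2.85 to 4.05) for Pparg expression and 0.431 (0.329 to 0.562) for Setdb1 knockdown. Parp9 and Dtx3l lie on opposite strands and overlap by 682 bases, yet their ratios with Setdb1 knockdown differed, since that of Parp9 was 0.978 (0.801 to 1.20). Parp14 was at 0.321 in the Myod1 library, 4.65 in the Pparg library, 1.08 in the expression control, 0.703 in the Setdb1 library and 0.790 in the knockdown control, with ratios of 4.31 (3.64 to 5.13) for Pparg expression and 0.298 (0.211 to 0.414) for Myod1 expression.

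Adar, which edits adenosine in RNA duplexes and thereby shields the cell's own RNA from MDA5 and PKR, was at 6.29 in the Myod1 library, 17.1 in the Pparg library, 11.5 in the expression control, 16.5 in the Setdb1 library and 9.49 in the knockdown control. The Pparg and Setdb1 libraries were the high ones, with ratios of 1.48 (1.39 to 1.58) and 1.74 (1.63 to 1.86), and the Myod1 library was the low one at 0.545 (0.4997 to 0.594). Helz2, a nuclear helicase also known as a coactivator of the Pparg protein, was at 1.48 in the Myod1 library, 5.86 in the Pparg library, 3 in the expression control, 4.91 in the Setdb1 library and 2.18 in the knockdown control, with ratios of 1.95 (1.77 to 2.16) for Pparg expression and 2.25 (2.005 to 2.52) for Setdb1 knockdown. Sp100, a component of nuclear bodies, was under 1 FPKM in every library, with a ratio of 6.71 (3.21 to 16.2) for Pparg expression.

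Among the other effectors, Lgals3bp, Ifi27 and Bst2 were the most abundant members in all 5 libraries. Lgals3bp, a secreted galectin-binding glycoprotein, was at 39.3 in the Myod1 library, 281 in the Pparg library, 73.1 in the expression control, 149 in the Setdb1 library and 68.8 in the knockdown control, and for it the 2 controls differed little, at a ratio of 0.940 (0.896 to 0.987). The ratio was 3.85 (3.71 to 3.99) with Pparg expression, 2.17 (2.08 to 2.26) with Setdb1 knockdown and 0.537 (0.507 to 0.569) with Myod1 expression. Ifi27 was at 95.2 in the Myod1 library, 179 in the Pparg library, 69.5 in the expression control, 126 in the Setdb1 library and 64.4 in the knockdown control, with all 3 treated libraries above both controls. Bst2, the tetherin that holds budding virions at the cell surface, was at 60.5 in the Myod1 library, 96.9 in the Pparg library, 61.6 in the expression control, 83.9 in the Setdb1 library and 62.7 in the knockdown control. The controls and the Myod1 library overlapped for Bst2, and the ratio was 1.57 (1.45 to 1.71) with Pparg expression and 1.34 (1.23 to 1.46) with Setdb1 knockdown.

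Ifi35 was at 13.5 in the Myod1 library, 22.4 in the Pparg library, 5.92 in the expression control, 15.3 in the Setdb1 library and 6.89 in the knockdown control, with all 3 treated libraries above both controls and ratios of 2.28 (1.89 to 2.75), 3.78 (3.19 to 4.50) and 2.22 (1.88 to 2.64) for Myod1, Pparg and Setdb1. Rtp4, whose product dampens interferon signalling, was at 1.04 in the Myod1 library, 14.1 in the Pparg library, 1.35 in the expression control, 5.43 in the Setdb1 library and 3.28 in the knockdown control. Its ratio was 10.4 (7.74 to 14.4) with Pparg expression, or 4.29 to the knockdown control, and 1.65 (1.31 to 2.09) with Setdb1 knockdown. Rtp4 overlaps Masp1 on the other strand over 525 bases, and Masp1 had 6094 reads in the Pparg library against 1656 in the expression control, and 278 in the Setdb1 library against 1966 in the knockdown control. How reads in the shared stretch were assigned is not given in the sources used here.

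Rsad2 encodes viperin, which makes a chain-terminating nucleotide, and its neighbour Cmpk2 encodes a nucleotide kinase. The pair lies at chr12:26442746-26479837. Rsad2 was at 5.31 in the Myod1 library, 14.0 in the Pparg library, 5.39 in the expression control, 11.9 in the Setdb1 library and 7.71 in the knockdown control, and Cmpk2 was at 1.39 in the Myod1 library, 6.04 in the Pparg library, 2.82 in the expression control, 2.34 in the Setdb1 library and 4.55 in the knockdown control. With Setdb1 knockdown the neighbours lay on opposite sides of the control, at ratios of 1.55 (1.39 to 1.72) for Rsad2 and 0.513 (0.425 to 0.618) for Cmpk2, or 2.21 and 0.828 to the expression control. With Pparg expression the ratios were 2.59 (2.30 to 2.91) and 2.14 (1.81 to 2.54), or 1.81 and 1.33 to the knockdown control. Xaf1, which promotes cell death, was at 0.949 in the Myod1 library, 4.71 in the Pparg library, 1.15 in the expression control, 2.64 in the Setdb1 library and 1.28 in the knockdown control. Samd9l, a restriction factor of poxviruses, was at 0.129 in the Myod1 library, 1.92 in the Pparg library, 0.812 in the expression control, 0.707 in the Setdb1 library and 0.573 in the knockdown control, with ratios of 2.37 (1.80 to 3.14) for Pparg expression and 0.159 (0.0759 to 0.301) for Myod1 expression. Ifi44 had 34 reads in the Pparg library and at most 2 in any other. With the floor of 3 reads it was 9.66 times the expression control, and the counting interval began at 7.44.

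Sensors and transcription factors as 1 class had a lower median log2 ratio than effectors with Pparg expression, 0.99 over 9 compared members against 1.35 over 35, and this order held in all alternatives tried. Of the former 4 of 9 were at least 2-fold higher, and of the effectors 23 of 35, beside 4.22% of all genes. Against the knockdown control these were 3 of 9 and 19 of 35, beside 5.52%. With Setdb1 knockdown the medians were 0.58 and 0.45, an order that turned to 0.35 and 0.49 after GC and length trends were removed. With Myod1 expression they were -0.40 and -0.13, which turned to -0.29 and -0.48 against the other control. The ranges overlapped, from 0.49 to 1.88 for sensors and transcription factors and from 0.33 to 2.82 for effectors with Pparg expression, and the classes are not called different.

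**Figure D4:**
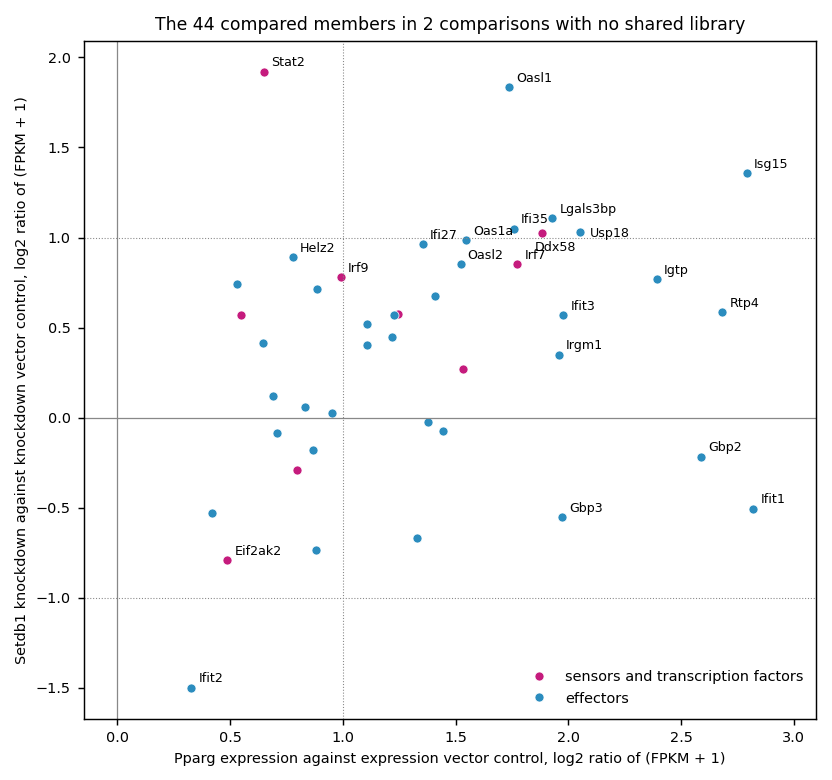
Log2 ratio of FPKM + 1 for the 44 compared members with Pparg expression (horizontal axis) and with Setdb1 knockdown (vertical axis), with dotted lines at 2-fold. Isg15, Lgals3bp, Oasl1, Ifi35, Usp18 and Ddx58 are past 2-fold in both (6 of 44, beside 1.01% of all genes compared), Stat2 lies at 0.65 and 1.92, and Ifit1 and Gbp2 lie at 2.82 and 2.59 with Pparg expression but at -0.51 and -0.22 with Setdb1 knockdown.

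The Pparg and Setdb1 comparisons share no library, and set side by side they differed by member. Of the 7 members at least 2-fold higher in the Setdb1 comparison, 6 (85.7%) were also at least 2-fold higher in the Pparg comparison, which is 22.2% of the 27 higher there. Among all genes compared the 130 genes higher in both were 10.8% of those higher with Setdb1 knockdown and 24.0% of those higher with Pparg expression. Stat2 was the exception, at 0.65 with Pparg expression, and Oasl1 was at 0.65 when the Pparg library was set against the knockdown control. Ifit2, at least 2-fold lower with Setdb1 knockdown, was at 0.33 with Pparg expression. Ifit1, Gbp2 and Gbp3 were among the highest with Pparg expression, at 2.82, 2.59 and 1.97, and had negative log2 ratios with Setdb1 knockdown, at -0.51, -0.22 and -0.55. With the other control, however, the Pparg values were 0.57, 1.68 and 1.4 and the Setdb1 values were 1.75, 0.70 and 0.02. The Myod1 and Pparg comparisons share the expression control, and their values stand side by side above.

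Members with an ISRE core in the promoter window had a median log2 ratio of 1.55 with Pparg expression, with 12 of 17 compared at least 2-fold higher. Those with a window but no core had a median of 1.05, with 9 of 18, beside 4.22% of all genes compared. Against the knockdown control the medians were 0.92 and 0.94, with 8 of 17 and 8 of 18, so the order of the medians did not hold with that control. With Setdb1 knockdown the medians were 0.42 and 0.63, with Myod1 expression -0.06 and -0.21, and between the controls 0.42 and 0.08. Both orders turned with the other control, to 0.74 and 0.61 for Setdb1 knockdown and -0.67 and -0.32 for Myod1 expression. Members without the core, such as Lgals3bp, Ifi35, Irf7 and Oasl1, were thus among the 2-fold higher ones as well.

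Upstream of these genes, interferon transcripts were at or near 0 reads. All 21 listed ligand genes stayed under the limit, and together they had 0 reads in the Myod1 library, 3 in the Pparg library, 2 in the expression control, 9 in the Setdb1 library and 3 in the knockdown control. Ifnb1 and the listed Ifna genes had 0 reads in all 5 libraries. By counting alone this allows up to 3 reads for each in a library of this depth. Reads shared by similar genes may not have been counted, since their assignment is not given. Of the 6 receptor genes 5 were compared. Ifnar2 was the 1 at least 2-fold higher with Setdb1 knockdown, beside 9.34% of all genes, at 6.95 in the Myod1 library, 8.57 in the Pparg library, 7.36 in the expression control, 15.9 in the Setdb1 library and 7.31 in the knockdown control. Ifnar1 was at 8.30 in the Myod1 library, 12.2 in the Pparg library, 13.9 in the expression control, 11.3 in the Setdb1 library and 14.8 in the knockdown control, lowest in the Myod1 library. Ifngr1 ran from 5.74 to 8.39 and Ifngr2 from 17.7 to 31.9.

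Of 17 signalling genes 16 were compared. With Pparg expression 1 was at least 2-fold higher (6.25%, beside 4.22% of all genes), Myd88, which encodes an adaptor of Toll-like receptors and was at 6.39 in the Myod1 library, 9.98 in the Pparg library, 4.47 in the expression control, 10.2 in the Setdb1 library and 5.32 in the knockdown control. With Setdb1 knockdown 2 were lower (12.5%, near the 10.3% of all genes) and 0 higher. These were Mb21d1, which encodes the DNA sensor cGAS and was at 0.771 in the Myod1 library, 1.88 in the Pparg library, 1.56 in the expression control, 0.616 in the Setdb1 library and 2.75 in the knockdown control, and Traf3, an adaptor between Mavs and its kinases, at 17.1 in the Myod1 library, 13.6 in the Pparg library, 15.6 in the expression control, 5.29 in the Setdb1 library and 15.4 in the knockdown control. With Myod1 expression Irf5 was higher (6.25%, beside 14.0% of all genes), at 6.70 in the Myod1 library, 1.08 in the Pparg library, 0.506 in the expression control, 0.484 in the Setdb1 library and 0.247 in the knockdown control. Jak1, Tyk2, Mavs, Tbk1 and Tmem173, the gene of STING, differed by less than 2-fold in all 4 comparisons. Of 8 negative regulators 6 were compared, and Samhd1, which degrades nucleotides, was the 1 lower with Setdb1 knockdown, beside 10.3% of all genes, at 4.75 in the Myod1 library, 5.54 in the Pparg library, 5.34 in the expression control, 2.34 in the Setdb1 library and 6.99 in the knockdown control. Ptpn6, a phosphatase, differed between the controls, at 4.56 in the Myod1 library, 6.14 in the Pparg library, 8.98 in the expression control, 5.67 in the Setdb1 library and 3.01 in the knockdown control.

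Of 39 further interferon-stimulated genes outside the 50, 19 were compared. With Pparg expression 12 were at least 2-fold higher and 0 lower, beside 4.22% and 2.30% of all genes, with a median log2 ratio of 1.47, and the 12 ran from 1.08 for Lgals9 to 2.78 for Ccl5. Of the 12, Trim30a and Slfn2 reached 1 FPKM only in the Pparg library, so they had to be higher there. Against the knockdown control 10 were higher and 0 lower, Trim30a and Slfn2 again included, beside 5.52% and 2.41% of all genes. The median was 1.10. Ifitm3, which blocks viral entry, was at 59.0 in the Myod1 library, 242 in the Pparg library, 83.5 in the expression control, 168 in the Setdb1 library and 79.4 in the knockdown control. The chemokine gene Ccl5 was at 3.97 in the Myod1 library, 16.8 in the Pparg library, 1.59 in the expression control, 34.6 in the Setdb1 library and 12.4 in the knockdown control, and Cxcl10 was at 4.43 in the Myod1 library, 20.2 in the Pparg library, 3.51 in the expression control, 12.3 in the Setdb1 library and 10.2 in the knockdown control. Both were at least 2-fold higher in the knockdown control than in the expression control, and the Pparg library was 1.36 times the knockdown control for Ccl5 and 1.97 times for Cxcl10. With Setdb1 knockdown 6 were higher, Ifitm3, Isg20, Parp10, Apol9a, Apol9b and Ccl5, from 1.07 for Ifitm3 to 2.53 for Apol9b, and Pnpt1 was lower at -1.58, with a median of 0.37. These are 31.6% and 5.26% of the 19, beside 9.34% and 10.3% of all genes. With Myod1 expression 2 were higher, Isg20 at 1.87 and Irgm2 at 1.14, which is 10.5% beside 14.0% of all genes, with a median of -0.24.

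Of the markers of other cell types, some were at or near 0 and others were not. Ptprc, the pan-leukocyte marker, had at most 2 reads, Siglech and Cd3e had 0 reads in every library, and the 6 leukocyte and macrophage markers summed to 6.42 FPKM in the Myod1 library, 2.60 in the Pparg library, 13.6 in the expression control, 20.9 in the Setdb1 library and 5.54 in the knockdown control. Most of each sum was Cd68, at 1.87 to 18.7, followed by Lyz2 at 0.714 to 2.05. The 3 fibroblast markers summed to 0.269 to 2.43 FPKM, highest in the Pparg library through Col1a1 with 242 reads there, and the 2 endothelial markers to at most 0.596. The part of these markers in the values of the antiviral genes was not tested.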

How the data were processed

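RNA was measured by sequencing in 5 libraries of B16F10 cells, 1 per group, grouped by genotype and treatment labels. The authors deposited FPKM values for 54699 genes in 1 table. The submitters' processing notes name CASAVA, HISAT2, featureCounts 1.5.0-p3 and the build GRCm38, and the options for strand and shared reads are not given in the sources used here. TRIzol was used for total RNA and a NEBNext Ultra kit for the libraries, per the labels' protocols.

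FPKM times gene length was a whole multiple of 1 step in each library for 100% of values above 0 (tolerance 0.01), which gave back 16214802 to 18300670 reads per library. The number by which the authors had divided was 0.859 times the reads for Myod1 expression and 0.976 to 1.10 times for the other libraries, so the values carry a scaling between libraries. Log2 ratios used a pseudocount of 1 and were compared where any library had 1 FPKM or more. Differences were counted at 2-fold, and folds against 0 reads used a floor of 3 reads. Intervals are Wilson intervals for levels and exact conditional binomial intervals for ratios, at 95%, and cover counting error only, since reads without molecular identifiers are not independent molecules. The code was checked on simulated data.

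The members and all lists were chosen with earlier results of these data known. Values in each library are printed for the highest and lowest member of each role in each comparison, for members 2-fold apart between the controls, and for members 2-fold from both controls where at most 10 were. Levels of further members were added after their values were seen. The list of signalling genes holds 1 more gene that is not reported here. Alternatives were other pseudocounts, filters, scalings, the other control and other role classes, and, chosen after seeing the data, a filter on the controls alone and the removal of trends with GC and length. Shared stretches were counted in GENCODE M21 transcripts. Python 3.11.15, numpy 2.4.6, pandas 2.3.3, scipy 1.17.1 and matplotlib 3.10.9 were used.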

Additional observations from a re-analysis of the deposited data

How the results depend on the processing

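With 1 library per group nothing here has a replicate check. No paired analysis was possible because each group holds 1 library and the labels give no replicate numbers. With Pparg expression 0 members were 2-fold lower under every alternative, and the median log2 ratio of 1.29 was 1.91 with a pseudocount of 0.1, 1.93 with no pseudocount and a floor of 3 reads, and 0.995 against the other control. With Setdb1 knockdown the 7 members that were 2-fold higher became 13 with a pseudocount of 0.1, 14 with the read floor, 16 against the other control, and 4 with division by the column sum, with scaling to the 75th percentile or without GC and length trends. The 1 lower member became 5 with the pseudocount of 0.1 and 5 with the read floor, 11.4% beside 16.3% of all genes in both. With Myod1 expression the 2 higher members became 5 with the pseudocount of 0.1, 5 with the read floor (11.4% beside 18.3% and 18.1% of all genes) and 1 each with division by the column sum, the 75th percentile, the other control and removal of GC and length trends. The 1 lower member became 10, 13, 5, 4, 8 and 3 in the same order (22.7%, 29.5%, 11.4%, 9.09%, 18.2% and 6.82%, beside 13.2%, 13.2%, 14.8%, 10.4%, 7.51% and 7.38% of all genes), and the median of -0.13 became -0.42 with the read floor, -0.34 with the column sum and -0.47 with the other control. Between the controls the 5 higher members became 12 with the pseudocount of 0.1 and 12 with the read floor, beside 3.26% and 2.68% of all genes. The low pseudocount and the read floor count members of few reads, where the added 1 shrinks ratios. For the other changes the cause was not tested. Of the values for single members 872 stayed within their counting interval and 247 did not. Settings that change only the filter cannot move a single member's ratio, so part of the 872 was fixed in advance. Median GC content was 49.7% for the members and 50.1% for all genes compared.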
